A study of Mus musculus with 2 samples.

Results

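miR-6240, miR-6236, miR-690 and miR-3535 are 4 mouse miRNA names that were counted in extracellular vesicles (EVs) from plasma, both of sedentary mice and of mice that had run on a treadmill. They were chosen by their names, as late-numbered or rodent-listed entries of the miRNA catalogue, and by their counts, since each had more than 3 counts in both libraries. In all, 117 species had 1 or more counts in the 2 libraries together and 17 had more than 3 in both, and the 4 are among the latter. At the edge of that threshold lay let-7a-5p with 38 and 4 counts and miR-30b-3p with 9 and 4 just inside it (sedentary, then exercise), and let-7b-5p with 7 and 3 and let-7f-5p with 25 and 3 just outside. Because the counts of both libraries took part in the choice, every count, share, rank and ratio of the 4 is given as a description with no test, and the intervals beside them show counting error only. Of the 4, 3 carry a number of 3000 or more, and miR-690 does not.

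The EVs came from wild type C57BL/6 mice aged 8 weeks and fed normal chow. The exercise group was acclimated to a treadmill over 3 days and then ran a single bout of 60 min to exhaustion, at speeds that rose from 10 to 24 m/min, and the other group stayed sedentary. Plasma was pooled from 20 mice in each group, about 10 ml a group, EVs were isolated by size exclusion chromatography (SEC), and 1 small RNA library was sequenced per group, named here sEVs for sedentary and eEVs for exercise. With 1 library a group there is no replicate, and the treatment, the pool of mice and the library cannot be told apart. The library of sEVs held 2851 miRNA counts and that of eEVs 820, a depth ratio of 3.48, so that 3 counts, the limit that a count of 0 allows, were 0.105% and 0.366% of them.

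A mature miRNA is cut by Drosha and Dicer from a stem-loop precursor, the hairpin, and is loaded onto an Argonaute protein, which it guides to messenger RNAs by pairing through its seed, bases 2 to 8. Catalogue entries with late numbers were mostly found by deep sequencing, where pieces of abundant RNAs such as ribosomal RNA (rRNA) or small nucleolar RNA (snoRNA) can also be sequenced. C/D snoRNAs are short nucleolar RNAs that guide the methylation of other RNAs and carry conserved C and D boxes near their ends, and in mammals most are released from introns of host genes. Plasma EVs are known to carry miRNAs beside fragments of rRNA, tRNA and other small RNAs.

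The 4 mature sequences are shown because their length, base content and seeds are what sets them beside ordinary miRNAs. They were taken from RefSeq (GRCm38.p6), 5′ to 3′, with the seed in capitals, and miR-23a-3p, the most abundant species of both libraries, is added as a conserved guide strand.
mmu-miR-6240: cCAAAGCAucgcgaaggcccacggcg
mmu-miR-6236: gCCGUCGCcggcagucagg
mmu-miR-690: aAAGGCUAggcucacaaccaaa
mmu-miR-3535: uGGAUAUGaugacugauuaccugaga
mmu-miR-23a-3p: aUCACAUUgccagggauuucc

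The 4 had 4 distinct seeds. The seed of miR-6240 was shared with 1 other mouse mature miRNA, miR-330-3p, and those of miR-6236, miR-690 and miR-3535 with none. For comparison, let-7a-5p shared its seed with 10 others. The 4 species are therefore no seed family.

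On the sequence alone, only miR-690 had the length of an ordinary miRNA. Of all 1679 mouse mature sequences in the reference, 83.2% were 21 to 23 bases long, and of the 95 other counted species with a reference sequence 81 were. miR-690 had 22 bases. miR-6240 and miR-3535 had 26 bases each, a length reached by 14 of the 1679 (0.834%) and by 2 of the 95 other counted species. miR-6236 was short, with 19 bases, and 52 of the 1679 (3.10%) and 2 of the 95 were as short or shorter.

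miR-6240 and miR-6236 also stood out in base content. G and C made up 69.2% of miR-6240 and 79.0% of miR-6236, against a median of 45.5% over the 95 other counted species, of which 3 reached the content of miR-6240 and 0 that of miR-6236. miR-6240 held 4 CpG steps, a number reached by 3 of the 95, and miR-6236 held 3, a number reached by 4 of the 95. miR-690 with 45.5% G and C and miR-3535 with 38.5% lay within the common range, and neither held a CpG. The plot of length against GC content places miR-6240, miR-6236 and miR-3535 at its edges in length and miR-690 in its middle.

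**Figure D1:**
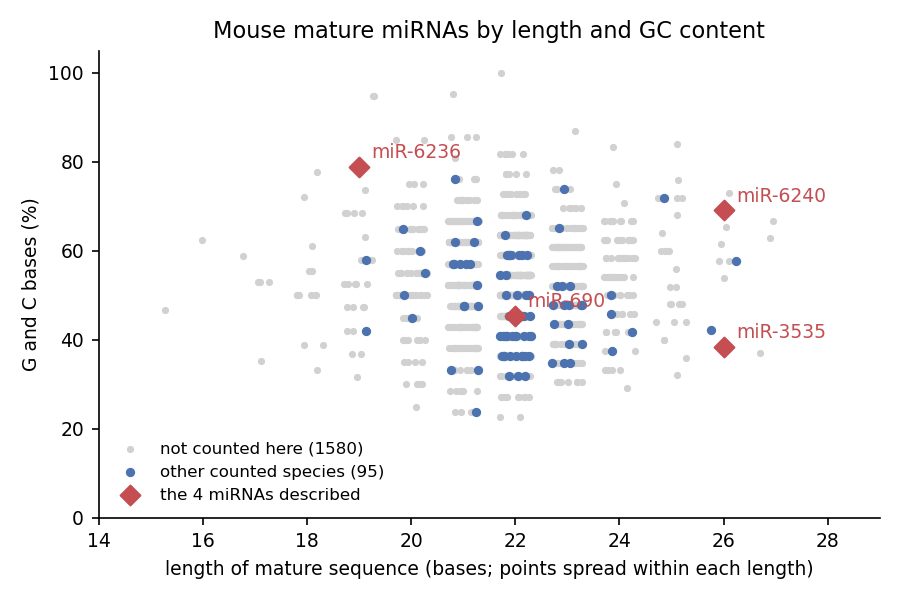
Mouse mature miRNAs by length in bases (x axis) and share of G and C bases in percent (y axis), with 1 point a sequence. Grey points are species not counted here, blue points the 95 other counted species, and red diamonds the 4 described: miR-6240 and miR-3535 lie at 26 bases, miR-6236 at 19 bases and 79.0%, and miR-690 among the bulk at 22 bases.

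The hairpin genes of miR-6240 and miR-690 are shown next, since where the mature sequence lies in its precursor, and what surrounds it, bears on whether it has the form of a miRNA. They are the transcripts of GENCODE M21 (GRCm38), 5′ to 3′, with the mature sequence in capitals.
Mir6240: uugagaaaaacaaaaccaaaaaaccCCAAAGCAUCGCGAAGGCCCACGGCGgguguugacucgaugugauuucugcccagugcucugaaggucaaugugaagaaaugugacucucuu
Mir690: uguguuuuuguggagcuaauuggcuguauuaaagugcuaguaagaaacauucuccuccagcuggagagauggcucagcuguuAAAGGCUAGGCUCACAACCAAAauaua

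Mir6240 spans chr5:114851948-114852064 on the plus strand of GRCm38, with the mature sequence at chr5:114851973-114851998. No other annotated gene overlaps it, and the nearest protein-coding gene, 4930519G04Rik, begins 1600 bases away. The mature sequence of miR-6236 lies at chr9:110281353-110281371 on the plus strand. It too lies between genes, 18711 bases from Cspg5, a chondroitin sulfate proteoglycan of the nervous system. Both mature sequences were far richer in G and C than the rest of their own hairpin gene: 69.2% against 40.7% in Mir6240, and 79.0% against 51.9% in Mir6236. Among 8 conserved guide strands with a hairpin here, the mature sequence was richer than the rest in 1, and by 1.19 percentage points. In miR-23a-3p it was 47.6% against 59.3%.

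No other annotated transcript held miR-6240 or miR-6236, while 52 of the 95 other counted species (54.7%) were held by another gene on the sense strand and 50 (52.6%) by one that is not a miRNA gene. Among 141767 transcripts of GENCODE M21, searched on both strands, neither was found outside its own hairpin gene, and neither was found with 1 mismatch, by its first 18 bases or by its last 18. The longest run that miR-6240 shared with any of 356 annotated rRNA transcripts, on either strand, was 11 bases, and that of miR-6236 was 9, against a median of 9 and a range of 8 to 14 over the 95 other counted species. With snoRNAs they shared at most 10 and 9 bases. The longest of these rRNA transcripts had 1849 bases and the median one 116, so the large subunit rRNA was not searched here, and whether either sequence is held in it was not tested. Of the other genes that shared any 18 bases with the Mir6240 and Mir6236 hairpin genes, 18 and 45 in number, none shared them within the mature sequence.

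miR-690 was held by many genes. Mir690 spans chr16:28599935-28600043 on the minus strand, with the mature sequence at chr16:28599940-28599961, in intron 1 of a transcript of Fgf12 on the same strand. Fgf12 encodes an intracellular fibroblast growth factor homologue that binds sodium channels. The full mature sequence was found in 18 other annotated genes on the sense strand, which with Mir690 lay on 12 chromosomes, and on the antisense strand in 1, the zinc finger gene Zfp101. The 18 were 15 genes annotated as miRNAs and 3 others, namely Fundc2, which encodes a mitochondrial outer membrane protein, the antisense gene BC018473 and the unclassified gene Gm42826. Of the 95 other counted species, 15 were held by another miRNA gene at all, and only miR-3470b, with 44, by as many as miR-690. A count on miR-690 therefore cannot be assigned to the locus on chromosome 16.

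The 15 other miRNA genes were alike in where the sequence lay, and most shared few bases with Mir690 directly before it. Its last base lay 2 to 6 bases before the end of the gene, as in Mir690, where 5 bases followed. Directly before it, they shared 0 to 23 bases with Mir690, with a median of 3. Within Mir690 itself, the 18 bases in a row found in the most other genes lay outside the mature sequence, at bases 60 to 77 of the hairpin gene, and were held by 470 other genes.
Mir690 bases 60 to 77: GCUGGAGAGAUGGCUCAG
In all, 534 other genes shared 18 bases with Mir690, 24 of them within the mature sequence. The hairpin gene of let-7a-5p shared 18 bases with 7 other genes, and that of miR-451a with 0. Of 32851 promoter windows, 13 held 18 bases of Mir690 (0.0396%), against 1 for Mir6240, 6 for Mir6236 and 0 for the miR-3535 hairpin.

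miR-3535 was the start of an annotated snoRNA. Its hairpin gene spans chr1:86351981-86352127 on the minus strand, with the mature sequence at chr1:86352062-86352087. The snoRNA gene Gm24148 lies inside it, at chr1:86352008-86352087, and the mature sequence was exactly its first 26 of 80 bases (32.5%). The snoRNA is shown from GENCODE M21 with those bases in capitals.
Gm24148: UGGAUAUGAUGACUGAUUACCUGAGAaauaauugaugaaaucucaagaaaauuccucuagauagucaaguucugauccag
Both lie in intron 11 of the 13 introns of the protein-coding transcript of Ncl, on the same strand. Ncl encodes nucleolin, a major nucleolar protein, and introns of this gene are known to host snoRNAs.

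Letters of the snoRNA boxes were in the mature sequence, but not the CUGA near the 3′ end of the snoRNA. Searched on the sense strand, UGAUGA, the core of the C box, lay at bases 7 to 12 of miR-3535. CUGA, the letters of the D box, lay at bases 13 to 16 and 21 to 24, with no overlap between these matches. In Gm24148 a further UGAUGA lay at bases 33 to 38. A CUGA near its 3′ end, the place of a D box, lay at bases 72 to 75, outside the mature sequence. Of all 1679 mouse mature sequences, 12 (0.715%) held UGAUGA and 217 (12.9%) held CUGA. Only 2 held UGAUGA followed by CUGA, miR-3535 and miR-677-5p. A match is a run of letters and shows neither that it is a box nor that a protein binds there.

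Outside the mature sequence, 21 bases of the hairpin gene of miR-3535, bases 92 to 112, were also found in CT010467.1, which is annotated as an rRNA. These 21 bases lie inside the snoRNA Gm24148, which covers bases 41 to 120 of the hairpin gene. Whether they run with rRNA or are complementary to it was not tested. Other genes that shared 18 bases in a row with this hairpin gene were Gm24148, Ncl, Gfer and the pseudogene Gm45232, with 80, 83, 18 and 20 bases. Ncl shared bases 65 to 147, which lie after most of the mature sequence.

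**Figure D2:**
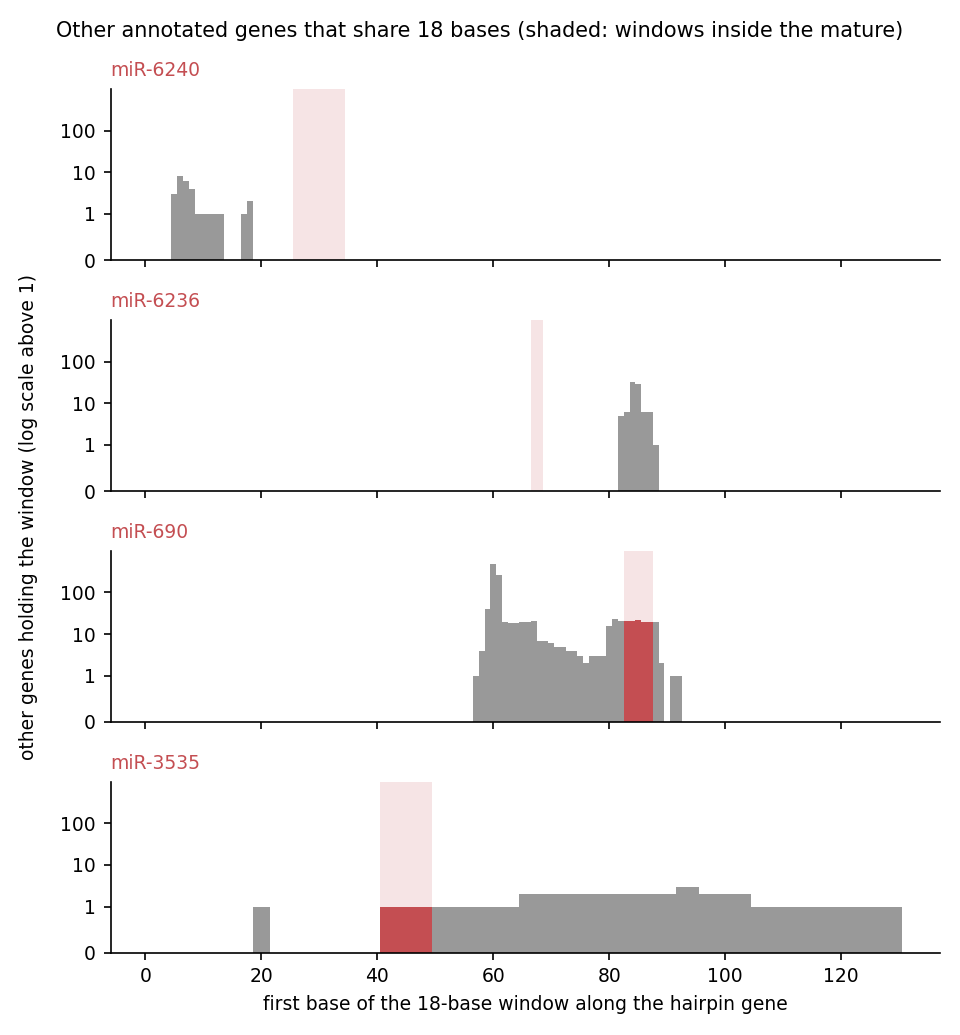
Number of other annotated genes (y axis, log scale above 1) that hold each 18-base window of the 4 hairpin genes, by the window's first base (x axis), with windows inside the mature sequence shaded and in red. The mature windows of miR-6240 and miR-6236 are at 0, those of miR-690 reach 22 genes beside a peak of 470 outside, and those of miR-3535 are at 1, the snoRNA.

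Among the counted species, miR-3535 was not alone in this. Of the 95 others with a reference sequence, 13 (13.7%) were held by an annotated snoRNA or scaRNA gene, and 2 of these had more than 3 counts in both libraries, miR-677-3p and miR-677-5p. These 14 species together held 310 counts in sEVs, 10.9% of the library, and 36 in eEVs, 4.39%. Of the 14, 6 had 0 counts in eEVs, the shallower library, and 3 had 0 in sEVs. Several are arms of the same hairpin with identical counts, so they are not 14 independent species.

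Folding with RNAfold at 37 °C paired most bases of the 4 mature sequences. Of the mature bases, 19 of 26 were paired in miR-6240 (73.1%), 14 of 19 in miR-6236 (73.7%), 15 of 22 in miR-690 (68.2%) and 20 of 26 in miR-3535 (76.9%). The median over the 95 other counted species was 82.6%, with a lowest value of 57.1%, and the 8 conserved guide strands lay between 77.3% and 95.5%. All 4 were thus below the median and below those guide strands, the nearest of which was miR-451a, while they lay above the lowest of the counted species. Of 1629 mouse hairpin genes, 24.7% paired as small a part of the mature sequence as miR-6240 or a smaller one, 25.2% as miR-6236, 34.0% as miR-3535 and 12.8% as miR-690. None of the 4 paired within its own mature sequence.

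Per base, the folding energy of the miR-6240 hairpin gene was −0.211 kcal/mol, and 99.1% of those hairpin genes folded at that energy or lower. It was −0.266 for miR-690 (95.6%), −0.261 for miR-3535 (96.3%) and −0.369 for miR-6236 (69.2%), against a median of −0.429 over the other counted species. The 4 hairpin genes were also longer, 109 to 147 bases against a median of 87. miR-6240, miR-6236 and miR-3535 folded into 1 hairpin loop, as 89 of the 95 others did, and miR-690 into 3. At 25 °C the number of paired mature bases was the same for each of the 4, and miR-3535 had 2 loops.

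In the counts, miR-6240 was by far the most abundant of the 4 and had the second most counts in both libraries. It had 334 counts in sEVs, a share of 11.7% (Wilson 95% interval, 10.6 to 13.0), and 92 counts in eEVs, 11.2% (9.24 to 13.6). Its share was nearly the same in the 2 libraries, and in both miR-23a-3p alone lay above it, with 45.2% and 44.1%. In eEVs miR-466i-5p was close behind, with 88 counts or 10.7%, and the interval of miR-6240 there allows ranks 2 to 3. The ratio of the eEV share to the sEV share was 0.958 (exact conditional 95% interval, 0.752 to 1.21), a log2 ratio of −0.06 (−0.41 to 0.27). That sign does not hold across scalings, since the log2 ratio was 0.11 with the TMM factors of edgeR and 0.46 with the size factors of DESeq2. All intervals cover counting error only, because there is 1 pooled library a group. Reads that carry no molecular identifier may be copies of 1 molecule, so the intervals may be too narrow even for counting error.

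miR-6236, the shortest of the 4, lay well below it. It had 51 counts in sEVs, 1.79% (1.36 to 2.34), and 13 in eEVs, 1.59% (0.929 to 2.69). It ranked 10 in sEVs and shared ranks 7 and 8 with let-7c-5p in eEVs, a mean rank of 7.5. The log2 ratio was −0.17 (−1.18 to 0.73), and 0.35 with the size factors of DESeq2, so that its sign depended on the scaling. With 1 library a group, a change with exercise cannot be tested.

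Of the 4, miR-690 differed most between the libraries. It had 78 counts in sEVs, 2.74% (2.20 to 3.40), and 7 in eEVs, 0.854% (0.414 to 1.75), where 22.4 counts would have given the sEV share. The intervals of the 2 shares did not overlap. The ratio was 0.312 (0.122 to 0.674), which is a share 3.21 times lower in eEVs (1.48 to 8.23), and the log2 ratio of −1.68 stayed between −1.71 and −1.16 under the alternatives run. Its rank was 6 of 82 counted species in sEVs, tied with both arms of miR-677, and 13.5 of 66 in eEVs, tied with miR-142a-5p. The intervals of its shares allow ranks of 4 to 9 and 6 to 23, which overlap. In EVs of pooled plasma, fewer vesicles with an RNA and less of it per vesicle cannot be told apart, and what part other RNAs that hold the same sequence have in these counts was not tested.

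miR-3535 was the least abundant in sEVs, with 42 counts or 1.47% (1.09 to 1.99), and had 8 counts in eEVs, 0.976% (0.495 to 1.91). Its rank was 11 in sEVs and 12 in eEVs. The log2 ratio was −0.59 (−1.90 to 0.51), and it kept its sign under the alternatives run, from −0.64 to −0.07. The share was lower in eEVs, by an amount that counting error alone can cover. The arms of miR-677, which are also held by a snoRNA gene, had 78 counts each in sEVs and 10 each in eEVs, a log2 ratio of −1.17 (−2.28 to −0.21).

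**Figure D3:**
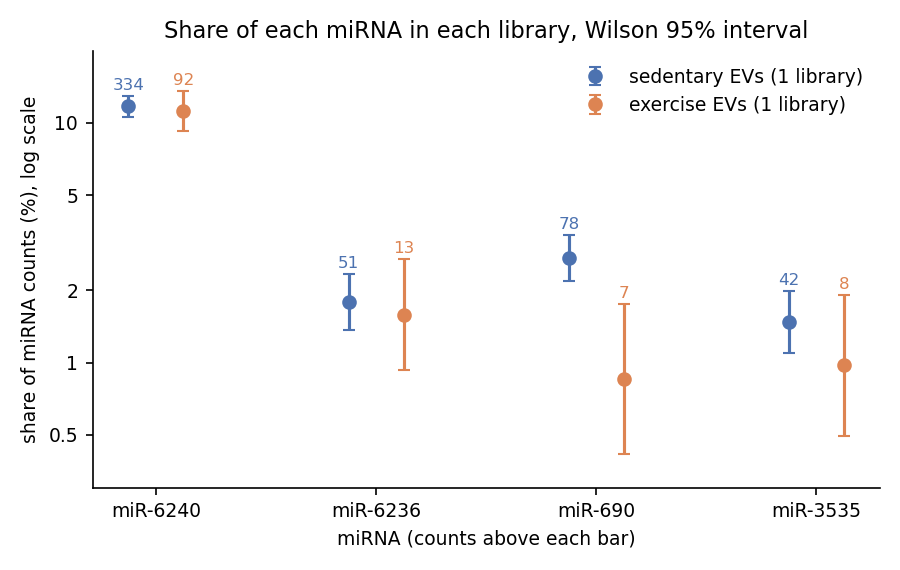
Share of all miRNA counts (y axis, percent, log scale) for the 4 miRNAs in sEVs (blue) and eEVs (orange), 1 library each, with Wilson 95% intervals as bars and counts printed above. The pairs of miR-6240, miR-6236 and miR-3535 overlap, and that of miR-690, with 78 and 7 counts, does not.

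Together the 4 held 505 counts in sEVs, 17.7% of the library (16.4 to 19.2), and 120 in eEVs, 14.6% (12.4 to 17.2). Most of these were miR-6240, with 66.1% of the members' counts in sEVs and 76.7% in eEVs. The other 3 together made up 6.00% of sEVs (5.18 to 6.93) and 3.41% of eEVs (2.37 to 4.89). Of the 171 and 28 counts behind the latter shares, 78 and 7 were miR-690.

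All 4 had a lower share in eEVs by library totals, with a median log2 ratio of −0.38. Of the 13 other species with more than 3 counts in both libraries, 7 were lower and 6 higher, with a median of −0.03, and over all 17 the median was −0.17. With the size factors of DESeq2, which shift every log2 ratio by 0.52, 2 of the 4 were higher and 2 lower, with a median of 0.14 against 0.49 for the 13 others. These size factors draw on all species counted in both libraries, some of them with only 1 or 2 counts in eEVs. With the TMM factors of edgeR, which shift every log2 ratio by 0.17, 3 of the 4 were lower, with a median of −0.21 against 0.14. A share more than 2-fold higher in eEVs was seen for 0 of the 4, where 23.5% of the 17 reached it, and more than 2-fold lower for 1 of the 4, miR-690, where 35.3% did. With the size factors of DESeq2, miR-690 remained 1 of 3 species of the 17 past 2-fold lower, and 6 were past 2-fold higher, none of them a member. The choice of the members used these counts, so nothing is read from the comparison. The interval of the ratio held no change for 3 of the 4 and for 6 of the 13 others.

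**Figure D4:**
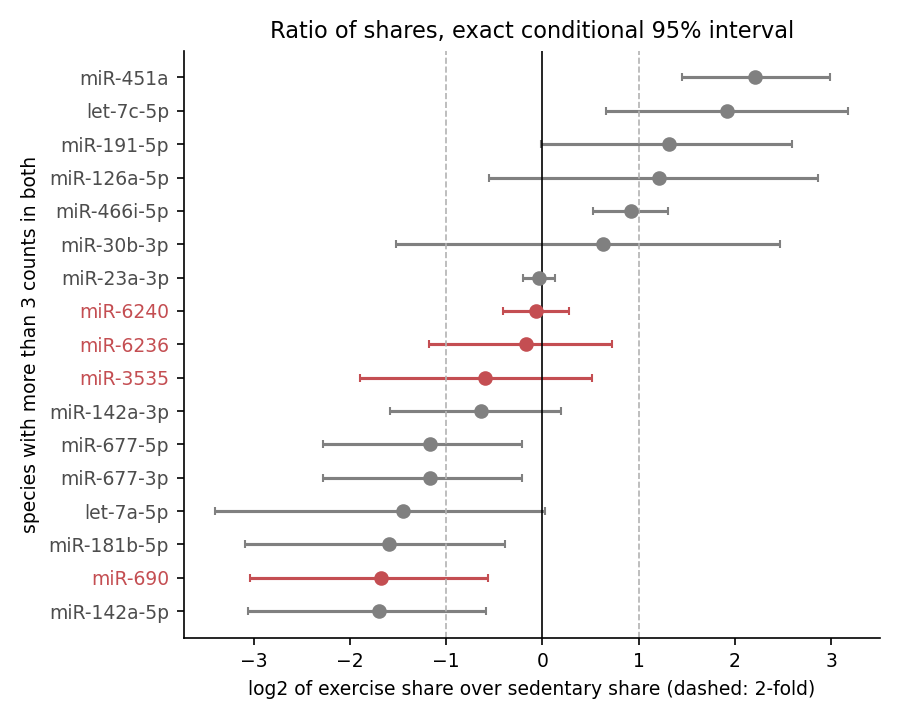
Log2 ratio of the eEV share to the sEV share (x axis) for the 17 species with more than 3 counts in both libraries, with exact conditional 95% intervals; the 4 described are in red and dashed lines mark 2-fold. The 4 lie from −0.06 for miR-6240 to −1.68 for miR-690, within a span of 2.21 for miR-451a to −1.70 for miR-142a-5p.

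For each member, the closest species in both shares were sought among the 13 others with more than 3 counts in both libraries, members left out. Likeness was measured as the Euclidean distance of the log2 shares over the 2 libraries, which with 2 points says little more than that the counts were near each other. Nearest to miR-690 was miR-142a-5p, a miRNA of blood cells, with 79 and 7 counts and a distance of 0.0184, then miR-181b-5p with 63 and 6 counts. Of these others, miR-181b-5p was also the nearest to miR-3535, at 0.717, followed by miR-142a-5p at 0.932. miR-6236 lay nearest to miR-142a-3p, with 76 and 14 counts, at 0.585, and then to the arms of miR-677 at 0.720. miR-6240 had no close neighbour, with miR-466i-5p at 1.05 and miR-23a-3p at 2.78.

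Ratios between the members do not depend on the library total. In sEVs the order was miR-6240, miR-690, miR-6236 and miR-3535, and in eEVs miR-6240, miR-6236, miR-3535 and miR-690. miR-6240 had 4.28 counts for each count of miR-690 in sEVs (exact conditional 95% interval, 3.34 to 5.55) and 13.1 in eEVs (6.13 to 33.6), so that this ratio was 3.07 times higher in eEVs (1.35 to 8.14). The ratio of miR-690 to miR-6236 moved by a like amount the other way, to 0.352 times its value in sEVs (0.112 to 1.03), and both ratios share the counts of miR-690.

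The ratio of miR-6240 to miR-6236, the pair rich in G and C, was the steadiest. It was 6.55 in sEVs (4.87 to 8.98) and 7.08 in eEVs (3.94 to 13.8), a change of 1.08 times (0.550 to 2.26). miR-6240 over miR-3535 was 7.95 in sEVs (5.76 to 11.2) and 11.5 in eEVs (5.60 to 27.4). The interval of the former change still allows a change of more than 2-fold, so a fixed ratio is not shown.

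Among the 3 less abundant members the order was not the same in both libraries. In sEVs miR-690 had 1.53 counts for each of miR-6236 (1.06 to 2.22) and 1.86 for each of miR-3535 (1.26 to 2.77), and in eEVs 0.538 (0.182 to 1.45) and 0.875 (0.270 to 2.76). miR-690 thus had the most counts of the 3 in sEVs and the fewest in eEVs, where the intervals are wide. miR-6236 over miR-3535 was 1.21 in sEVs (0.791 to 1.87) and 1.63 in eEVs (0.624 to 4.52), with 1 inside both intervals. Counts were not scaled for the length of the sequences, which differ by at most 7 bases.

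**Figure D5:**
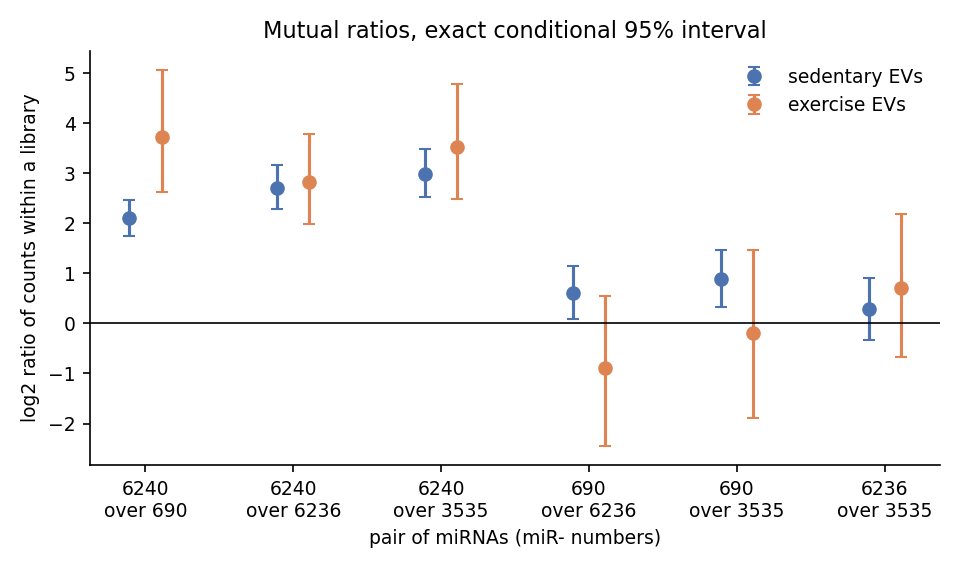
Log2 ratio of the counts of each pair of members within a library (y axis), in sEVs (blue) and eEVs (orange), with exact conditional 95% intervals, for the 6 pairs (x axis). The ratio of miR-6240 to miR-690 moves from 4.28 to 13.1 and its intervals do not overlap, whereas those of the other pairs do.

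Few other late-numbered species were counted, and the choice by counts in both libraries fixes in part how the members compare with them. The count table listed 940 mouse names with a number of 3000 or more, of which 22 had a count. The 3 late-numbered members held 427 of the late-numbered counts in sEVs (90.1%) and 113 in eEVs (70.2%). The other 19 species had 47 and 48 counts in all, and none had more than 3 in both libraries. With more than 3 in 1 library there were 7, namely miR-3470b with 0 counts in sEVs and 26 in eEVs, both arms of miR-3068 with 10 and 2 each, both arms of miR-7051 with 7 and 0 each, and both arms of miR-3062 with 4 and 0 each.

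The names of the members differ from most in having no arm. A suffix marks from which arm of the hairpin, 5p or 3p, a mature miRNA comes, and both arms are named where reads of both are known. Of the 1915 mouse names listed, 324 had no suffix (16.9%), and of the 117 counted 13 (11.1%). Of the 17 species with more than 3 counts in both libraries 5 had none, the 4 members and miR-451a, which is known to be made without Dicer and to come from 1 arm. Reads of a second arm, by which a hairpin can be checked, were therefore not counted apart for the members.

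The counts also leave it unresolved which bases were read. Of the 32 hairpins with both arms counted, 22 had identical counts on both arms in both libraries, 8 of them with more than 3 counts in a library, so a count need not refer to reads of the named arm alone. For the members, with 1 name a hairpin, reads of the mature sequence and of other stretches of the hairpin, or of the rest of the snoRNA for miR-3535, cannot be told apart in these files.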

How the data were processed

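Small RNA was sequenced with TruSeq libraries on a HiSeq over 50 nt from a single end, 1 pooled library for sEVs and 1 for eEVs. The authors deposited raw counts per mature miRNA and a normalized table that gives 117 species as a fraction of the miRNA total of each library, which the shares computed here match within 4.9e-10. The aligner, the miRNA reference release and the genome build are not given in the sources used here. Of the 1982 listed names, 67 were not mouse, and all of these had 0 counts.

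Shares were counts over the library total (2851 and 820) with Wilson 95% intervals, and ratios had exact 95% intervals conditional on the summed counts, from scipy 1.17.1. No model of edgeR can be fitted to 1 library a group, so edgeR 4.0.16 and DESeq2 1.42.0 gave scaling factors only. A 2-fold ratio was the size used for description. The members, lists and comparison species were chosen with earlier results of these data known. The named species were the 4 members, the most abundant species, the 2 non-members nearest to each member in log2 share, other late-numbered species (3000 or more) with more than 3 counts in a library, and 9 conserved guide strands, 8 with a hairpin here. Genes holding a mature sequence are named where they are 5 or fewer. miR-677, miR-330-3p and the genes of other hairpin windows were named after their values were seen.

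Mature sequences came from RefSeq (GRCm38.p6), where 99 of the 117 species matched, and transcripts from GENCODE M21. A search of the genome had been planned; no genome was used, so the search covered both strands of 141767 annotated transcripts. The hairpin sequence of miR-6236 is not reported here. RNAfold 2.7.2 folded the hairpin genes at 37 °C. Intervals and searches were tested on simulated data.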

Additional observations from a re-analysis of the deposited data

How the results depend on the processing

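With 820 miRNA counts in eEVs, 3 of the 4 members rest on 7 to 13 counts there, and 1 library a group leaves differences among mice unmeasured. No paired analysis was possible because each group had 1 library. Of 146 alternative values for 46 results, 129 stayed within the counting interval of the reported value, or within 1.5 times for counts of genes, and 17 did not. The 129 include the values from the deposited fractions, which could not move, being the same counts over the same totals.

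Leaving miR-23a-3p, the most abundant species, out of the totals raised the shares by construction: miR-6240 became 21.4% of sEVs and 20.1% of eEVs, miR-6236 3.27% and 2.84%, miR-690 4.99% of sEVs, miR-3535 2.69% of sEVs, and the 4 together 32.3% and 26.2%. Leaving a member out of the sum lowered it by construction, in sEVs to 6.00% without miR-6240, 15.9% without miR-6236, 14.98% without miR-690 and 16.2% without miR-3535, and in eEVs to 3.41% without miR-6240.

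The size factors of DESeq2 shifted every log2 ratio by 0.52 and the TMM factors of edgeR by 0.17. By that common shift the log2 ratio of miR-6240 became 0.46 with the former. Of the 17 species, 6 were past 2-fold lower by library totals and 3 by the size factors of DESeq2, and 4 and 6 past 2-fold higher. miR-690 kept its direction under each scaling tried. With 1 mismatch allowed, 41 genes besides its own held miR-690 on either strand, against 19 without, and 10 genes of other classes held it on the sense strand, against 3. Any 18 bases in a row of it were held by 8 genes of other classes. Folding temperature, ties in rank and added counts moved none of the results they were tried on beyond these limits.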
